A study of Mus musculus with 23 samples.

Results

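The transcripts of 10 genes that encode neuropeptides of hippocampal neurons were examined in the whole hippocampus of young and middle-aged mice: Npy, Sst, Cck, Penk, Pdyn, Vip, Tac1, Tac2, Crh and Cort. The members were the probe sets of the array whose annotated gene symbol is 1 of these 10, which gave 12 probe sets of 9 genes out of 12488 probe sets in all (8251 genes named by 1 symbol), and Crh, which encodes corticotropin-releasing hormone, had no probe set under that symbol. Penk was represented by 3 probe sets, Pdyn by 2 and each other gene by 1. The mice were 14 males of 15 months and 9 males of 2 months, all of the strain C57BL/6JNIA, with 1 array per mouse. Both ages had gone through the Morris water maze, a spatial memory task, and were killed by cervical dislocation, so that no untrained mouse enters the comparison. Values are MAS5 signals on a linear scale, where 1 signal summarises the probes of a probe set on an array.

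Neuropeptides are cut from larger precursor proteins, stored in dense-core vesicles and released during strong neuronal firing to act on G protein-coupled receptors. In the hippocampus most of them mark classes of GABAergic interneurons: neuropeptide Y and somatostatin are made by dendrite-targeting interneurons, cholecystokinin by a class of basket cells and vasoactive intestinal peptide by interneurons that contact other interneurons. Prodynorphin and proenkephalin, the precursors of opioid peptides, are also made by granule cells of the dentate gyrus. The comparison of the ages asks which transcripts of these peptides change by 15 months.

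General measures of the arrays did not pass a test between the ages. The trimmed mean of the signals was 500.3 on every array, the median signal lay between 154.3 and 187.6, and the 99th percentile of the signals did not pass an exact two-sided permutation test between the ages (p = 0.340). The array of 15-month replicate 13 was least like the others, with a median correlation of 0.947 with them, against 0.967 to 0.977 for the other arrays. Of 8 marker genes of hippocampal pyramidal and granule neurons on the array 7 were bright enough to be tested. Of 3 striatal genes bright enough, the dopamine receptor gene Drd2 had the lowest p (log2 difference -0.29, limma adjusted p = 0.428), and the summed signal of the 3 was 2676.7 to 3254 at 15 months and 2538 to 3126.5 at 2 months. Precision is limited by how many arrays were made.

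Npy, whose product neuropeptide Y restrains glutamate release and seizures, was the 1 member gene whose rise at 15 months passed the adjusted test. Its signal was 2274.2 at the lowest, 2472.8 at the median and 2791.3 at the highest in the 14 mice of 15 months, against 1506.3, 2078.9 and 2475.1 in the 9 mice of 2 months. The ages overlapped in part: 8 of the 9 young mice lay below the lowest 15-month mouse, and 7 of the 14 older mice lay above the highest 2-month mouse. The mean was 2511 ± 169 (SD, n = 14) at 15 months and 2003 ± 322 (SD, n = 9) at 2 months, a rise of 1.26-fold (95% interval 1.15 to 1.40). The log2 difference, taken on log2(signal + 16), was 0.34 ± 0.07 (SE; adjusted p = 0.0159 in limma's test with Benjamini-Hochberg adjustment over 7453 probe sets), and 14 of 14 older mice were above the 2-month mean. Because whole tissue was measured, more cells of a type and more RNA per cell cannot be told apart in this rise. The same limit holds for any other value here, in either direction.

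Npy was the 1 probe set called among the 10 member probe sets that were bright enough to be tested, while 0.376% of all tested probe sets were called (28 of 7453). The members were chosen with earlier results of these data known, so the shares of members given here are descriptions and no independent evidence. At an unadjusted p under 0.05 the members were 3 of 10, those of Npy, Penk and Cort, against 12.4% of all tested probe sets. All 3 were higher at 15 months, so 0 of 10 members were lower at that p, against 6.51% of all tested probe sets. Of the 10, 7 had log2 differences above 0 and 3 below, with a median of 0.08, beside a median of -0.02 over all tested probe sets. The call of Npy was kept in all of the 35 alternative settings run, 23 of which left out 1 mouse each, with adjusted p between 0.00594 and 0.0479. None of these settings let the variance of a probe set differ between the ages, so the call was not tested under unequal variance. The spread among mice also differed by age as a description: the SD of log2 Npy was 0.09 at 15 months and 0.24 at 2 months, and the mice of lowest signal, 2-month replicates 1 and 5, were at 1506.3 and 1567.5.

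**Figure D1:**
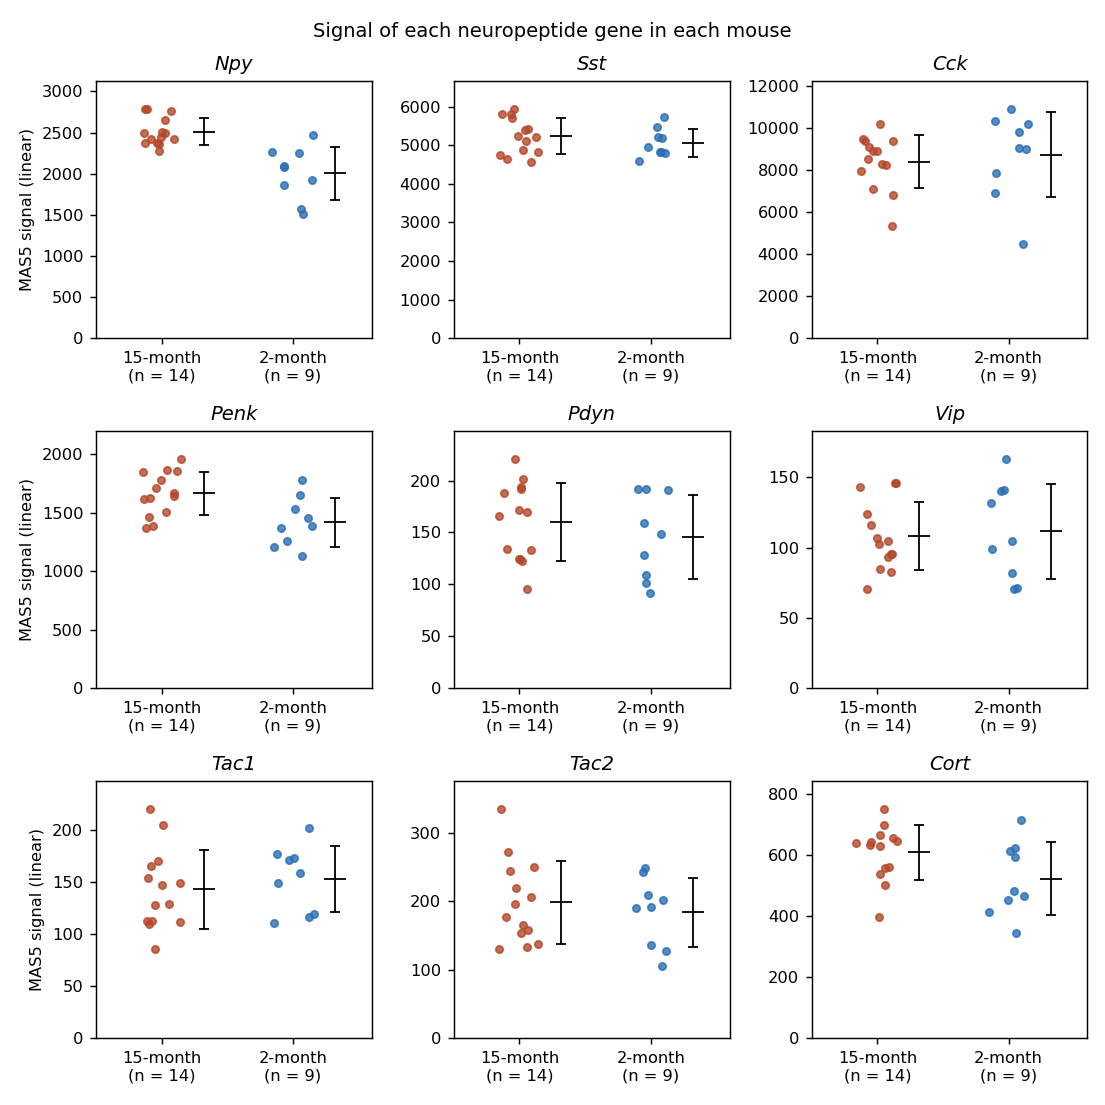
MAS5 signal (linear scale, from 0) of the brightest probe set of each of the 9 genes in each mouse, with 14 mice of 15 months on the left and 9 of 2 months on the right of each panel; the bar beside the points is the mean ± SD. Npy stands at 2274.2 or above in every 15-month mouse, whereas the points of the other genes overlap widely between the ages.

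The stretches of genome just before an annotated start of Npy, of Sst and of Cort are shown to set the gene that rose beside those of somatostatin and cortistatin, which act on shared receptors and whose genes did not pass the test. Each is the 250 bases before the start given by RefSeq for GRCm38.p6, written 5′ to 3′ on the strand of the gene: Npy at chr6:49822460-49822709 on the plus strand, Sst at chr16:23890845-23891094 on the minus strand and Cort at chr4:149126764-149127013 on the minus strand. The Sst start of that table lies inside the span that RefSeq lists for the gene, so its stretch precedes an internal start and not the whole gene. Capitals mark matches, on either strand, to the half-site of the cAMP response element (TGACG), its full palindrome (TGACGTCA), an AP-1 site (TGANTCA) or a GC box (GGGCGG).
Npy: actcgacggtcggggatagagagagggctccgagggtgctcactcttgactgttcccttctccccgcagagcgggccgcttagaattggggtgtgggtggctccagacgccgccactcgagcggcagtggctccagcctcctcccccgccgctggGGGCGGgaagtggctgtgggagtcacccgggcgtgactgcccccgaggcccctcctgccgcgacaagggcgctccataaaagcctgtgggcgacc
Sst: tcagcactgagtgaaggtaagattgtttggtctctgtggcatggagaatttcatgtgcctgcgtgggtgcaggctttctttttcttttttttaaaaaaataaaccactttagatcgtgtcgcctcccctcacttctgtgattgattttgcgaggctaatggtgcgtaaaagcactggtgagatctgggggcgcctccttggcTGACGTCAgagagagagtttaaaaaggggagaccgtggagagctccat
Cort: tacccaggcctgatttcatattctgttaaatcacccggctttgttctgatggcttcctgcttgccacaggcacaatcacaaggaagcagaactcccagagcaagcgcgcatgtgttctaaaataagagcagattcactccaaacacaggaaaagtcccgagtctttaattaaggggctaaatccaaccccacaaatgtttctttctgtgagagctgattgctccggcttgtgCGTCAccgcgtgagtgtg

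The Npy stretch held a GC box 95 to 90 bases before the start and no match to the other letters. The Sst stretch held the full palindrome 48 to 41 bases before the start, which contains the half-site on both strands, and the Cort stretch held the half-site on the opposite strand, as CGTCA, 18 to 14 bases before the start. Over the 32851 promoters of the table, cut to the same length, 17.8% held the half-site, 1.55% the palindrome, 6.75% the AP-1 letters and 32.7% the GC box. Promoters were found for 8 of the 10 genes, and of the others Cck and Vip held the half-site 1 time each and Tac1 2 times, and Tac1 also held a GC box, 107 to 102 bases before its start. A match is a description of letters and says nothing of a factor bound there.

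Somatostatin and cortistatin, related peptides that bind the somatostatin receptors, did not pass the test. Sst had signals of 4567.6, 5216.55 and 5947.4 (lowest, median, highest) at 15 months and 4585.2, 4944.3 and 5737 at 2 months. The ranges almost coincided, and the log2 difference was 0.05 ± 0.05 (SE; limma adjusted p = 0.763), with a 95% interval of -0.06 to 0.16. Cort had signals of 398, 634.1 and 750.6 at 15 months and 343.8, 482.4 and 713.1 at 2 months. Its 15-month mice were above the 2-month mean in 12 of 14 cases, but 13 of the 14 lay within the 2-month range. The log2 difference of Cort was 0.23 ± 0.11 (SE), with an unadjusted p of 0.0424 that did not pass adjustment (limma adjusted p = 0.382).

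No probe set of the opioid precursor genes passed the test, and the probe sets of Penk differed widely in brightness. Penk, the precursor of the enkephalins, had signals of 1367.8, 1657.5 and 1963.8 at 15 months and 1127.8, 1386.5 and 1782.2 at 2 months in the first, brightest probe set. In this probe set 12 of 14 older mice were above the 2-month mean, and 9 of the 14 lay within the 2-month range. The log2 difference was 0.23 ± 0.08 (SE), a ratio of 1.18 (95% interval 1.06 to 1.31), and did not pass the test (limma adjusted p = 0.198, with 0.119 to 0.360 when 1 mouse was left out). The suffix f of this probe set marks probes that can be shared by a family of related sequences. A second probe set of Penk was at 168 ± 48.8 at 15 months and 166 ± 70.0 at 2 months (log2 difference 0.07 ± 0.19, limma adjusted p = 0.905). Its 95% interval on the log2 scale, -0.32 to 0.45, holds that of the first, 0.08 to 0.39. Whether the 2 probe sets differ in their age difference was not tested. Over the 23 mice the deviations of the second from the age means correlated with those of the first at 0.057. The third probe set of Penk was below the filter, with signals of 0.8 to 16.6 at 15 months and 2.3 to 12.8 at 2 months (exact two-sided permutation p = 0.731).

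Pdyn, the precursor of the dynorphins, was measured in its brighter probe set at 95.5, 168.2 and 221 at 15 months and 91.4, 148.3 and 191.7 at 2 months. Its log2 difference was 0.13 ± 0.14 (SE; limma adjusted p = 0.744), and 11 of 14 older mice lay within the 2-month range. The other Pdyn probe set lay below the filter at 84.9 ± 36.7 at 15 months and 80.3 ± 46.3 at 2 months (log2 difference 0.12, exact two-sided permutation p = 0.694), close to the first in its age difference, and it correlated with the first at -0.049 over the 23 mice. Neither Pdyn probe set passed a test between the ages.

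Cck, which encodes the precursor of cholecystokinin, did not pass the test and varied widely among mice of both ages. Its signals were 5348, 8700.0 and 10208.2 at 15 months and 4474.9, 9029.2 and 10920.4 at 2 months, and all 14 older mice lay within the 2-month range. The log2 difference was -0.03 ± 0.12 (SE; limma adjusted p = 0.941), with a 95% interval of -0.28 to 0.22. The signal of Cck went with the bright end of the arrays: on the 4 arrays with the lowest 99th percentile, 2 of each age, it was 4474.9 to 7077.8, against 6825.8 to 10920.4 on the other 19. The mean level of Cck itself lies at percentile 99.2 of the probe sets, so its probe set sits at the quantile it is set against, and the dimmer genes do not. With age means removed, log2 Cck and the log2 99th percentile correlated at r = 0.716 over 23 mice (permutation p = 3.0e-04, adjusted p = 0.00270 over 9 genes) and at rho = 0.481 (permutation p = 0.0250, adjusted p = 0.173). Without the 2 arrays farthest from the median r was 0.626.

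Within the 15-month mice this correlation of Cck was 0.834 (rho 0.684; permutation p = 8.6e-04 and 0.00870, adjusted 0.00774 and 0.0783), and 0.495 without the 2 farthest arrays. Within the 2-month mice it was 0.666 (rho 0.217; exact permutation p = 0.0437 and 0.581, adjusted 0.220 and 0.747), and -0.544 without the 2 farthest, so there it rests on those 2 arrays. No other of the 9 genes passed this test with adjustment, and with the 25th percentile of the array none did. For Npy the correlation with the 99th percentile was -0.105 over all mice (rho -0.045; permutation p = 0.627 and 0.840). Its sign differed within the ages: r was 0.269 at 15 months (permutation p = 0.360, adjusted p = 0.648). At 2 months r was -0.415 (exact permutation p = 0.258, adjusted p = 0.580), and 0.437 without the 2 farthest arrays. Without the 4 arrays of lowest 99th percentile the log2 difference of Npy was 0.42 (limma adjusted p = 0.00594). Among the arrays left out are 2-month replicates 7 and 8, the young mice of highest Npy signal (2262.9 and 2475.1), so their removal lowers the 2-month mean.

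**Figure D2:**
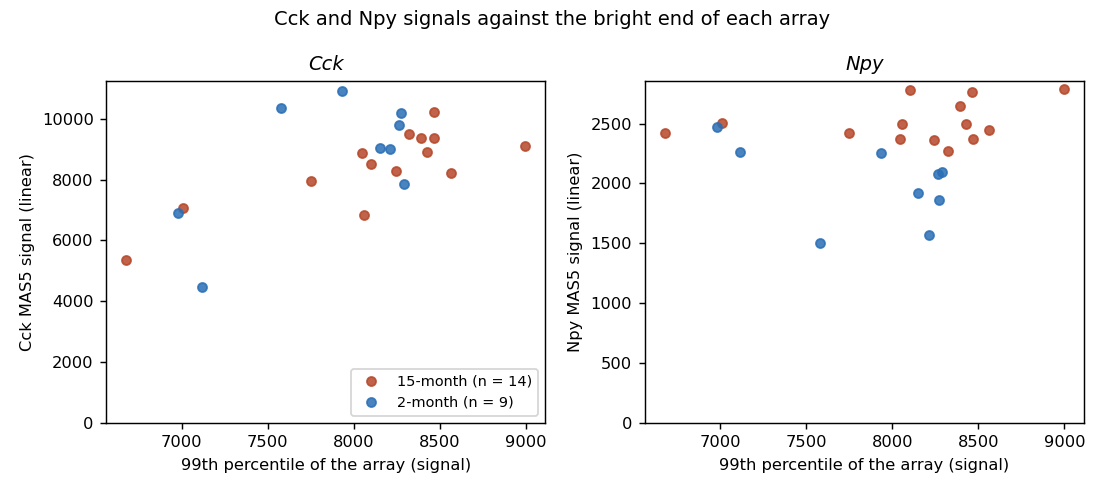
MAS5 signal (linear scale, from 0) of Cck on the left and Npy on the right against the 99th percentile of the signals of the same array, with 1 point per mouse, red for 15 months (n = 14) and blue for 2 months (n = 9). The 4 arrays of lowest 99th percentile (6677 to 7116) have low Cck signals, while their Npy signals lie among or above those of the other arrays of their age.

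The remaining peptide genes had dim probe sets, and none passed the test. Vip, of vasoactive intestinal peptide, was at 108 ± 24.2 at 15 months and 112 ± 33.8 at 2 months (log2 difference -0.02 ± 0.14, limma adjusted p = 0.965). Tac1, the precursor of substance P and neurokinin A, was at 143 ± 37.9 at 15 months and 153 ± 31.5 at 2 months (-0.10 ± 0.13, limma adjusted p = 0.792). Tac2, the mouse gene of the neurokinin B precursor, was at 199 ± 60.3 at 15 months and 184 ± 50.5 at 2 months (0.10 ± 0.16, limma adjusted p = 0.832), its highest mouse being 15-month replicate 7 at 335.2. The 95% intervals of these log2 differences were -0.31 to 0.27 for Vip, -0.38 to 0.17 for Tac1 and -0.22 to 0.42 for Tac2, so that a rise of the size seen for Npy lies outside the intervals for Vip and Tac1 and within that for Tac2, while a fall of that size lies within the interval for Tac1.

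**Figure D3:**
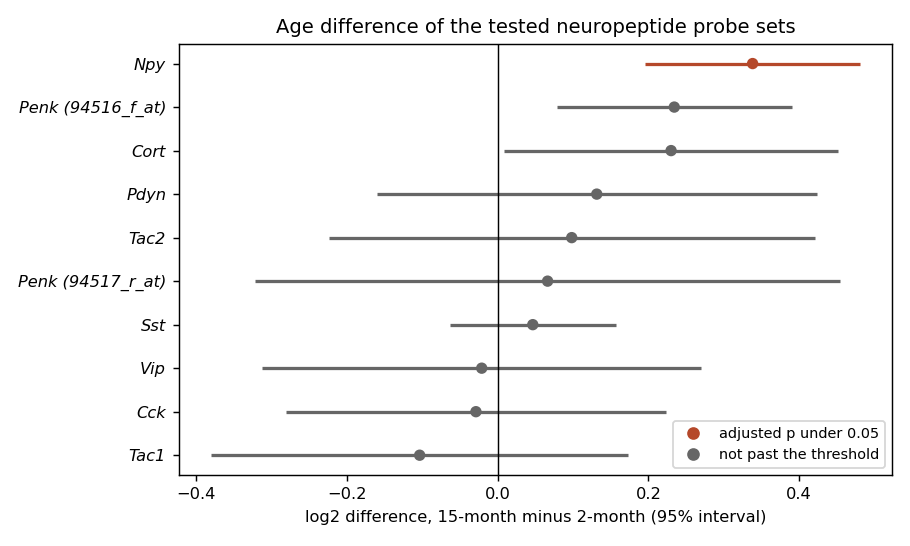
Log2 difference between the ages (15-month minus 2-month, log2(signal + 16)) of the 10 tested probe sets, with points for the limma estimate and lines for its 95% interval. Npy at 0.34 is the 1 probe set past the threshold, and the intervals of the first Penk probe set and of Cort also lie above 0 without passing adjustment.

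The ratio of Npy to each of the other genes on the same array was computed after the values were seen. Npy was taken as the numerator because it was the called gene, so these ratios hold the difference of Npy again and are no independent evidence. The log2 ratio of Npy to Sst was -1.05 ± 0.10 (SD, n = 14) at 15 months and -1.34 ± 0.26 (SD, n = 9) at 2 months, a difference of 0.29 ± 0.08 (SE; exact two-sided permutation p = 5.16e-04, adjusted p = 0.00413 over 8 ratios). The ratio of Npy to Tac1 also differed (0.44 ± 0.15, SE; exact permutation p = 0.00664, adjusted p = 0.0266). For the other 6 genes the ratio was higher at 15 months by 0.10 (Penk) to 0.37 (Cck) without passing adjustment, with exact permutation p of 0.0415 to 0.354.

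Npy and the other peptide genes were also compared mouse by mouse within each age, over 8 relations per age. At 15 months Npy correlated with Sst (r = 0.636, permutation p = 0.0162, adjusted p = 0.0647; rho 0.563, permutation p = 0.0394, adjusted p = 0.105) and, negatively, with Vip (r = -0.643, permutation p = 0.0138, adjusted p = 0.0647; rho -0.704, permutation p = 0.00626, adjusted p = 0.0501), and neither relation passed adjustment. Pdyn stood alike at r = 0.549 (permutation p = 0.0448, adjusted p = 0.119; rho 0.609, permutation p = 0.0237, adjusted p = 0.0949), so that 3 of 8 relations had an unadjusted p under 0.05 for r and none passed adjustment. Without the 2 mice farthest from the median of Npy, r was 0.68 for Sst, -0.692 for Vip and 0.45 for Pdyn. At 2 months r was -0.0407 for Sst, 0.0503 for Vip and -0.452 for Pdyn (rho 0.05, 0.133 and -0.335; exact permutation p = 0.917, 0.892 and 0.223 for r). The difference between the ages was not tested. Among the 15-month mice Sst correlated with the 99th percentile of the array at r = 0.551 (rho 0.569; permutation p = 0.0375 and 0.0364, adjusted 0.169 and 0.164). Vip correlated with the 25th percentile at r = 0.332 (rho 0.618; permutation p = 0.257 and 0.0212, adjusted 0.727 and 0.191). Npy itself correlated with the 25th percentile at r = -0.364 in the same mice (rho -0.543; permutation p = 0.207 and 0.0473, adjusted 0.727 and 0.213), the opposite sign to Vip, and the part of these array measures in the relations was not tested.

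With the age means removed, Cort followed Npy most closely among the other peptide genes (r = 0.518, permutation p = 0.0299, adjusted p = 0.239; rho 0.344, permutation p = 0.148, adjusted p = 0.538). That correlation was 0.252 without the 2 mice of farthest Npy, and so rests on them. Within the ages r was 0.445 at 15 months (rho 0.343; permutation p = 0.110 and 0.231) and 0.575 at 2 months (rho 0.3; exact permutation p = 0.108 and 0.437). No relation of Npy to another peptide gene passed adjustment over all mice or within an age.

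**Figure D4:**
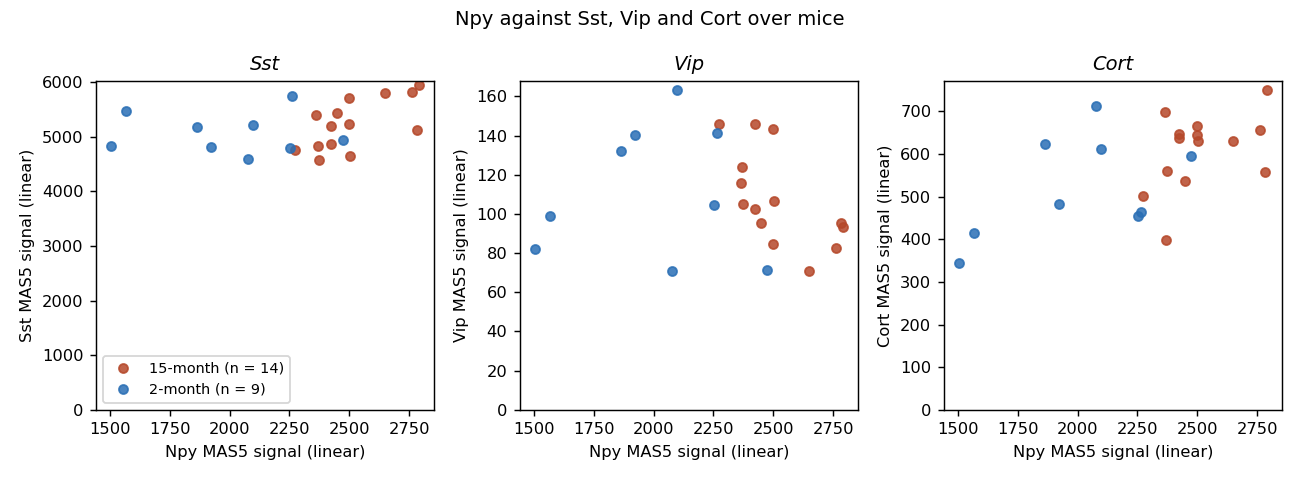
MAS5 signal (linear scale) of Sst, Vip and Cort, each from 0, against that of Npy, with 1 point per mouse, red for 15 months (n = 14) and blue for 2 months (n = 9). On the log2 scale r is 0.636 for Sst and -0.643 for Vip among the 15-month mice, and -0.0407 and 0.0503 among the 2-month mice.

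Over all tested probe sets with a gene symbol, the 10 whose deviations from the age means were most like those of Npy over the 23 mice correlated with it at 0.608 to 0.737. In order of likeness they were those of Cyth3, an exchange factor of Arf GTPases, Vps29, a subunit of the retromer, Mir686, Bckdha, a subunit of the branched-chain keto acid dehydrogenase, Ube2z, Acly, the ATP citrate lyase, Crip2, Psma2, a proteasome subunit, Riok3 and Bcl10. None of these 10 was called between the ages, and no member or interneuron marker was among them. The closest to Sst were Dad1 (0.768), Chmp2a and Rps7, and the closest to Penk were Fhl2 (0.747), Sys1 and Fads1. The closest to Cck were Aldoc, an aldolase, at 0.842 and the elongation factor genes Eef1a1 and Eef2 at 0.813 and 0.811. The closest to Pdyn was Tm2d3 (0.742), to Vip Cd59b (0.707), to Tac1 Rit2 (0.742), to Tac2 Aldh2 (0.751) and to Cort Trappc4 (0.764). These are descriptions over arrays that the genes share.

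No receptor gene passed the test. Of 25 listed symbols of receptor genes of these and closely related peptides, older names among them, 8 were bright enough. Their log2 differences were below 0 in 7 and above in 1, with a median of -0.15, beside -0.02 over all tested probe sets. Sstr4 and Adcyap1r1, 2 of the 8, had an unadjusted limma p under 0.05. Both were lower at 15 months, where 6.51% of all tested probe sets were lower at that p. Sstr4, a somatostatin receptor, had the lowest p, with 669.5 ± 50.4 at 15 months and 759 ± 99.9 at 2 months (log2 difference -0.17 ± 0.07, limma adjusted p = 0.282). The following were chosen after their values were seen, as the receptors of members. Npy2r, the presynaptic receptor of neuropeptide Y, was at 2362 ± 345 at 15 months and 2271 ± 127 at 2 months (log2 difference 0.04, limma adjusted p = 0.844), and Npy1r was at 179 ± 49.3 and 197 ± 41.4 in the same order of ages (-0.16, limma adjusted p = 0.704). Sstr2, another somatostatin receptor, had a log2 difference of -0.15 (limma adjusted p = 0.763), and Cckbr, the main brain receptor of cholecystokinin, one of -0.12 (limma adjusted p = 0.567). That of Crhr1, a receptor of the peptide whose own gene had no probe set, was -0.10 (limma adjusted p = 0.792).

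No tested gene of the machinery that makes and breaks down peptides passed the test. Of 21 genes of prohormone processing and dense-core vesicles 17 were tested and none passed, with 9 log2 differences above 0 and 8 below and a median of 0.01. Pcsk1 and Pam were below the filter, and Pcsk2 and Vgf had no probe set under their symbols, so nothing can be said of these genes. Pcsk4, a proprotein convertase, had the lowest p, at 135 ± 33.7 at 15 months and 96.5 ± 36.2 at 2 months (log2 difference 0.47 ± 0.17, limma adjusted p = 0.255). Cpe, the carboxypeptidase that trims neuropeptides and was chosen after its value was seen, was at 12383 ± 1392 at 15 months and 12148 ± 1171 at 2 months (log2 difference 0.02). Of 13 genes of peptide breakdown and binding 6 were tested and none passed (median -0.04), Ide of the insulin-degrading enzyme having the lowest p (-0.06, limma adjusted p = 0.788). Mme, of neprilysin, was below the filter, and Crhbp, of the protein that binds corticotropin-releasing hormone, had no probe set under its symbol.

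Of 33 listed symbols of other neuropeptide and peptide hormone genes, older names among them, 9 were tested and none passed. Of these 9, 8 had log2 differences below 0 (median -0.12). The one of lowest p was Oxt, of oxytocin, at 352 ± 85.3 at 15 months and 396 ± 67.0 at 2 months (log2 difference -0.19, limma adjusted p = 0.583). Whether these lists differ from the members was not tested.

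Markers of GABAergic interneurons in general, not only of those that make these peptides, did not pass the test either. Of 27 listed genes 17 were tested and none was called, with 13 log2 differences below 0 and 4 above and a median of -0.09. However, 5 had an unadjusted p under 0.05, all of them lower at 15 months, where 6.51% of all tested probe sets were lower at that p. Calb1, 1 of these 5, is also in the list of dentate granule cells. Calb2, of calretinin, had the lowest p, at 745 ± 143 at 15 months and 868 ± 103 at 2 months (log2 difference -0.23 ± 0.10, limma adjusted p = 0.326). Gad1, the enzyme that makes GABA, was at 4183 ± 313 at 15 months and 4009 ± 324 at 2 months (0.06 ± 0.05, limma adjusted p = 0.661). Pvalb, of parvalbumin, was at 3131 ± 243 at 15 months and 3214 ± 432 at 2 months in its brightest probe set (-0.03 ± 0.06, limma adjusted p = 0.870). The second Pvalb probe set had a log2 difference of 0.06, and Gad2, of the other GABA-making enzyme, was below the filter at 71.0 ± 26.7 at 15 months and 85.7 ± 34.4 at 2 months.

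Genes induced by neuronal activity were tested in 20 of 28 listed cases and none passed, with 10 log2 differences above 0 and 10 below (median 0.00). Dusp6, a phosphatase that acts on ERK kinases, had the lowest p, at 1083 ± 161 at 15 months and 1332 ± 85.6 at 2 months (log2 difference -0.31 ± 0.08, limma adjusted p = 0.0826). Fos, a transcription factor of recently active neurons, was at 299 ± 133 at 15 months and 286 ± 95.2 at 2 months (0.01, limma adjusted p = 0.990).

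Among lists of the cells and tissues that a hippocampal dissection could hold, that of microglia had called genes. Of its 11 tested genes 4 were called higher at 15 months, with Ctss, a lysosomal protease, Ly86 and Mpeg1 having the lowest p and all 11 log2 differences above 0 (median 0.26). Of the 7 that did not pass, Csf1r, Cx3cr1 and Cd68, chosen after their values were seen, had log2 differences of 0.01, 0.01 and 0.02 (limma adjusted p = 0.954, 0.990 and 0.919). The summed signal of all 11 tested microglial genes was 8706.8 to 10429.4 at 15 months and 6685 to 8540.6 at 2 months. The part of this sum in the rise of Npy was not tested. None passed among 7 genes of pyramidal and granule neurons (median -0.19, Bok of lowest p at -0.21), 5 of dentate granule cells (median -0.04, Calb1 of lowest p at -0.17), 6 of thalamus and habenula (median -0.13, Rora of lowest p at 0.17), 6 of amygdala, hypothalamus and cortex (median -0.09, Dlk1 of lowest p at -0.16), 3 of striatum (median -0.04) and 4 of choroid plexus (median 0.44, Folr1 of lowest p at 0.77). The summed signal of the 4 choroid plexus genes varied widely among mice, from 864 to 13301.5 at 15 months and from 888.6 to 12278.1 at 2 months. No model held the choroid plexus level as a covariate. With the striatal level in the model the log2 difference of Npy was 0.32 (limma adjusted p = 0.0479), and with the thalamic and habenular level it was 0.33 (limma adjusted p = 0.0368). Several defining markers, such as Drd1 and Adora2a of striatum and Pou4f1 and Chat of habenula, had no probe set under their symbols, so these lists describe the neighbouring tissue only in part.

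**Figure D5:**
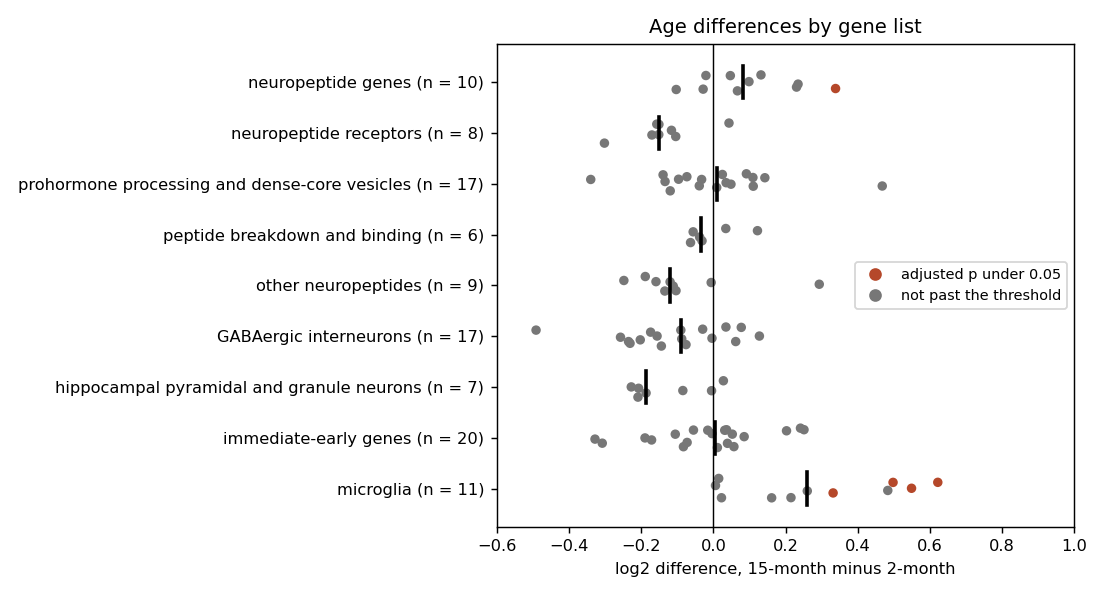
Log2 difference between the ages (15-month minus 2-month) of the tested neuropeptide probe sets and of the brightest probe set of each tested gene in 8 lists, with red for adjusted p under 0.05 and a black bar for the median of a row. Npy and 4 microglial genes are the red points, and the median of the receptors is -0.15.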

How the data were processed

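Total RNA of the whole hippocampus was hybridised to 1-colour Affymetrix arrays, 1 per mouse, and the labels call the mice biological replicates. The authors deposited 1 linear intensity per probe set and array; MAS5 is the tool that the submitters' processing notes name, with no version. The trimmed mean (2% off each end) was equal on all arrays, so the signals were not normalised further, and at most 44 values were identical between 2 arrays. Groups come from the age in the labels, with no batch or scan date given, and the running numbers in the titles do not overlap between the ages, so that an effect of such an order and age cannot be told apart.

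Of 12422 probe sets that are no control, 10833 had 1 gene symbol in the annotation table of the platform. The 7453 probe sets with a mean log2(signal + 16) above the 40th percentile, a signal of 91.7, were compared by age in R 4.3.3 through the linear model of limma 3.58.1, with eBayes set to its trend and robust options. Tests were two-sided, p-values were adjusted by Benjamini-Hochberg, and 0.05 was the threshold. Fold changes are on the log2(signal + 16) scale, which understates those of dim genes. Of the 12 member probe sets 10 passed this filter. Single values were compared with exact permutation tests over all 817190 regroupings, and correlations with 100000 permutations, or exactly within the 9 mice of 2 months (numpy 2.4.6, scipy 1.17.1 in Python 3.11.15). The limma and permutation steps were tested on simulated data. Promoter sequences are RefSeq's for GRCm38.p6.

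The members and lists were chosen with earlier results of these data known. Named genes were, besides the members, up to 3 called genes of a list or else the 1 of lowest p, the probe sets most like each member, and Gad1, Gad2, Pvalb, Fos, Crhbp and Mme. Each gene of a list stood for its brightest tested probe set. Alternatives changed the pseudocount, the filter, the normalisation, the test, a covariate or the mice. A covariate of the 99th percentile and the ratios to Npy were added after the data were seen.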

Additional observations from a re-analysis of the deposited data

How the results depend on the processing

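Npy kept its direction and its call in all of the 35 alternatives. Its log2 difference was 0.29 to 0.38 when 1 mouse was left out and 0.30 to 0.42 in the 12 other settings, with the highest adjusted p, 0.0479, under the striatal marker covariate and 0.0373 with the exact Mann-Whitney test. The count of member probe sets past the threshold was 1 in every setting. No setting let the variance differ between the ages, while the SD of log2 Npy was 0.09 at 15 months and 0.24 at 2 months. The other 9 tested member probe sets passed in none of their 312 values under alternatives, of which 16 had the sign turned, 10 of them of Vip, 4 of Cck and 2 of the second Penk probe set; none of these was called. The mean of the 3 Penk probe sets gave a log2 difference of 0.09 (limma adjusted p = 0.754), against 0.23 for the first alone. That mean gives equal weight to the third probe set, which was below the filter, and to the dim second one. Of all probe sets 28 were called, and 61 with the 25th percentile covariate (40 higher and 21 lower at 15 months), the cause of which was not tested. Leaving out 1 mouse gave 20 to 39 calls, 18 to 32 of them higher and 2 to 7 lower (leaving out 15-month replicate 3 gave the 7, and replicates 9, 10 and 12 of that age gave 5 each). Calls lower at 15 months were 3, but 6 with the 60th-percentile filter, which tests fewer probe sets, and 8 with the Mann-Whitney test, for which the cause was not tested. No paired analysis was possible because the mice of the 2 ages are different animals, with 1 array each. Signals near or below the filter (Vip, Tac1, Tac2, Pdyn and the dim Penk probe sets) limit what can be said of those genes.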

Other observations

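Within the 2-month mice no probe set of the 9 genes had a lowest or highest mouse that stood apart by Dixon's criterion. The largest gap at an end was 0.376 of the range, against a critical value of 0.493 for 9 mice. The criterion takes 1 mouse at an end, so 2 low mice close together, as for Npy (1506.3 and 1567.5), can hide each other. The 15-month mice were not tested by it. The spread of log2 values between mice at 15 and at 2 months was 0.13 and 0.10 for Sst, 0.24 and 0.40 for Cck, 0.16 and 0.21 for the first Penk probe set and 0.22 and 0.33 for Cort, beside medians of 0.23 and 0.21 over all tested probe sets. Differences in spread were not tested.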
